A study of Mus musculus with 6 samples.

Results

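Endothelial cells from embryonic mouse hearts that had lost both alleles of Dll4 were compared with cells that had lost 1 allele, to ask what loss of the remaining allele adds. The 4 libraries of the groups KO (replicates 1 and 2) and het (replicates 2 and 3) were chosen by their labels, out of 6 libraries in the series. The other 2, replicates 4 and 5 of the group wt, were used for the shared estimate of spread and to set the first step of loss beside the second. All 3 groups carried the transgene Pdgfb-iCreERT2-IRES-EGFP, in which the Pdgfb promoter, active in endothelial cells, drives a Cre that works only after tamoxifen, together with EGFP. The groups came from 3 crosses. Transgenic mice were mated with wildtype females for wt (labelled WT, 2 intact copies of Dll4), whereas Dll4flox/flox mice with the transgene were mated with wildtype mice for het (labelled Dll4+/-, 1 intact copy) or with Dll4 flox/flox females for KO (labelled Dll4-/-, 0 intact copies). Tamoxifen was given to every group at E13.5, and hearts from several litters were taken at E14.5. The cells were thus profiled 1 day after tamoxifen, and how soon after it the allele was removed was not measured here. The sort kept CD31+ cells that were also EGFP+, so cells in which the transgene was silent were left out. The labels do not say whether the 2 libraries of a group came from separate embryos or litters, so p-values measure only the spread between these libraries, which may be technical.

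Dll4 is a membrane-bound ligand that activates Notch receptors on neighbouring cells. Activation releases the receptor's intracellular part, which joins the DNA-binding protein Rbpj and Mastermind coactivators and switches on genes of the Hes and Hey families. In developing vessels this signal favours arterial identity and restrains sprouting and proliferation, and in the heart it acts in the plexus from which coronary arteries form.

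The libraries differed in depth and in makeup. Summed counts were 1537894 and 3165535 in het, 6501789 and 4987999 in KO, and 2521532 and 1732132 in wt. The first principal component of log2 expression, with 56.6% of the variance, placed the KO libraries at 53.8 and 59.9 and the other 4 between -32.7 and -25.2, and the second set het replicate 2, at 43.1, apart from the rest. Lars2, the gene of mitochondrial leucyl-tRNA synthetase, took 17.1% and 16.4% of the counts in het but 0.0572% and 0.0611% in KO. Mitochondrial ribosomal RNA took 1.84% and 3.22% in het and 0.108% and 0.0954% in KO. The part of this difference in the results below was not tested, and the labels give no preparation batch, so KO preparation cannot be told apart from genotype. Levels are given as CPM, a gene's counts as a share of the library's total. The totals were adjusted by TMM, a trimmed mean that sets aside such dominant genes.

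Dll4 itself followed the labels. The ligand gene lies on chromosome 2 from 119325784 to 119335962 (GRCm38, ENSMUSG00000027314). It stood at 81.2 and 85.9 CPM in the het libraries and at 19.4 and 13.7 CPM in the KO libraries, with 196 and 183 CPM in wt. The 3 groups did not overlap. The log2 fold change from het to KO was -2.32 ± 0.17 (SE), 5-fold lower, with edgeR adjusted p = 1.76e-09. The second step was larger than the first on the log2 scale, by -1.15 ± 0.28 (edgeR adjusted p = 0.00911 for the difference between the steps).

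Loss of the second allele was accompanied by changes in 3412 of 10952 tested genes, 31.2%, at an adjusted p under 0.05. Of these, 1524 (13.9%) were higher and 1888 (17.2%) lower in KO. The falls were larger than the rises. The median fold among called genes was 2.08 for falls and 1.60 for rises, and 989 falls against 215 rises were estimated at 2-fold or more. Tested against a 2-fold change rather than against no change, 409 genes (3.73%) passed, 393 lower (3.59%) and 16 higher (0.146%). The 16 became 2 with DESeq2, 3 with limma-voom, 10 without KO replicate 1 and 8 without KO replicate 2, and scaling by library size alone gave 109 higher and 231 lower. Listed whatever their place in the naming rule, the 16 were Adamts8, Ak4, Bmp6, Bnip3, Ccar2, Gm14308, Gm15725, Gm26718, Hspa1a, Kcnk5, Nanp, Pakap, Pfkl, Rsc1a1, Slc16a1 and Uty. These directions are relative to the bulk of genes. Scaling by library size alone, which counts Lars2 and its like into the total, shifted the median over all genes from -0.02 to 0.36 on the log2 scale, and the calls became 3930 higher and 1016 lower. Under that scaling the split also turned for endothelial identity (11 of 24 higher, 3 lower), flow (5 of 10 higher, 2 lower), G1 (8 of 20 higher, 3 lower), Smad and BMP target (4 of 12 higher, 2 lower), Myc network (4 of 11 higher, 2 lower) and pentose phosphate genes (4 of 7 higher, 2 lower), described below under TMM. It moved upward for Notch signal components (9 of 21 higher, 3 lower), guidance genes (6 of 22 higher, 8 lower) and solute carriers (73 of 177 higher, 10 lower).

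For comparison, the first step, het against wt, gave 19 called genes (0.173%), 14 higher (0.128%) and 5 lower (0.0457%), by the same edgeR test. At an unadjusted p under 0.05 there were 893. The 2 steps share the het libraries, so a het library that is high or low by chance pushes them in opposite directions. A direct test of the second step against the first called 1258 genes (11.5%), 403 with a higher (3.68%) and 855 with a lower (7.81%) second step. With DESeq2 that count was 779, and it fell to 758 without het replicate 2 and to 775 without wt replicate 4.

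**Figure D1:**
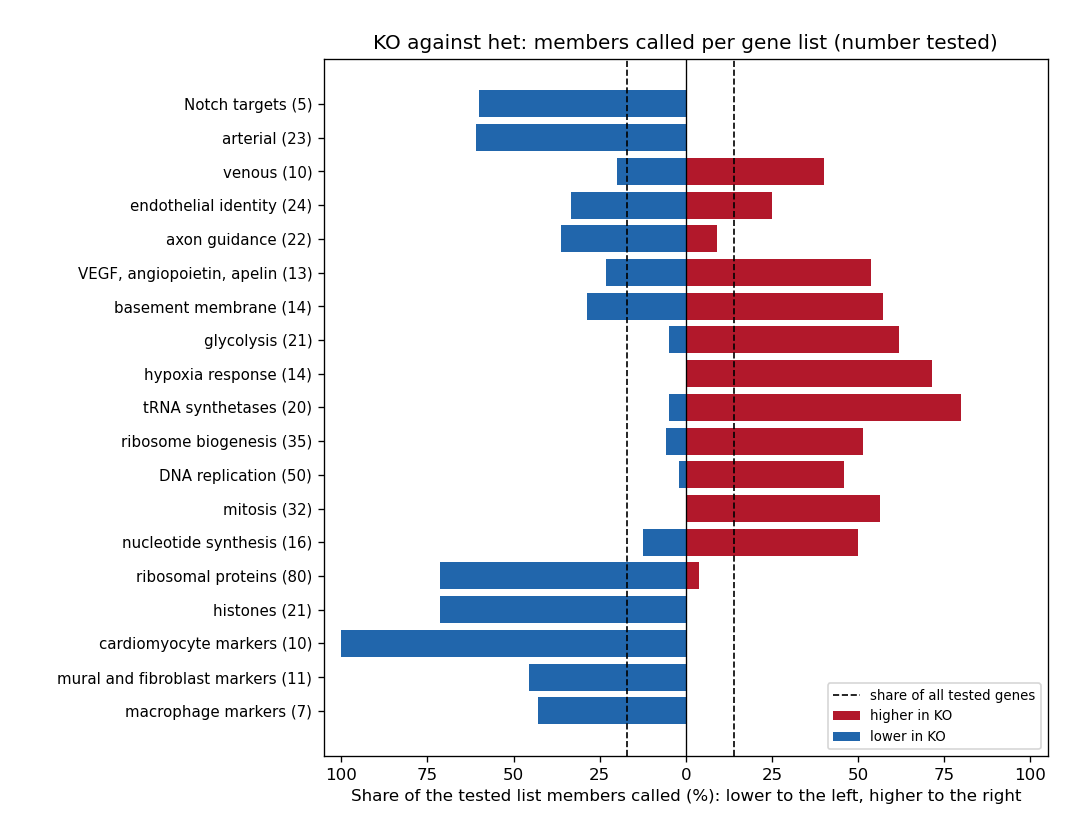
Share of the tested members of each gene list that was called higher (right, red) or lower (left, blue) in KO against het, in percent, with the number tested in parentheses. The dashed lines mark the shares among all tested genes, 13.9% higher and 17.2% lower. Arterial genes, ribosomal proteins and histones lie mostly to the left, and glycolysis, hypoxia, tRNA synthetase and cell division genes mostly to the right.

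Among Notch ligands and receptors, 7 of 9 were expressed highly enough to be tested. Of these, 1 was called higher and 3 lower, against 13.9% and 17.2% of all tested genes. Notch1, the main Notch receptor of endothelium, stood at 343 and 321 CPM in het and at 153 and 108 CPM in KO. Both KO libraries lay below both het libraries, and the log2 fold change was -1.34 ± 0.16 (edgeR adjusted p = 1.18e-04). The related receptor gene Notch4 stood at 224 and 253 against 217 and 202 CPM and did not pass (log2 fold change -0.19, adjusted p = 0.181). Notch2, a receptor more prominent in other cell types, was scarce, at 8.55 and 4.19 against 1.95 and 1.19 CPM. Its call (adjusted p = 0.0384) ended when any 1 of the 6 libraries was left out (adjusted p from 0.05 to 0.284). The ligand gene Jag1 went the other way from Dll4, from 24.9 and 21.3 to 31.8 and 37.2 CPM. That rise was called at edgeR adjusted p = 0.0385, with a log2 fold change of 0.60, and was lost with DESeq2 (adjusted p = 0.148), without het replicate 2 (0.0513), het replicate 3 (0.250) or KO replicate 2 (0.179), and without wt replicate 5 (0.0526). In wt Jag1 had stood at 43.7 and 51.9 CPM.

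Components that cut, modify and relay the signal were divided. Of 21 tested, 5 were higher and 5 lower, close to the background of 13.9% higher and 17.2% lower. Maml1, a Mastermind coactivator of the Notch complex, fell from 35.6 and 38.0 to 10.3 and 8.14 CPM (log2 fold change -1.99, adjusted p = 4.65e-06). Psen2, a catalytic subunit of the gamma-secretase that frees the intracellular domain, fell from 42.0 and 31.1 to 15.5 and 12.2 CPM (adjusted p = 2.67e-04). In the other direction, Adam10, the protease that makes the first cut after ligand binding, rose from 204 and 167 to 344 and 320 CPM (log2 fold change 0.85, adjusted p = 5.45e-06). Numb, an adaptor that counteracts Notch, rose from 51.3 and 81.3 to 121 and 123 CPM (adjusted p = 7.67e-04).

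Direct Notch target genes were called lower in 3 of 5 tested and higher in none, with 3 of the 8 listed too low to test. Hey1, a repressor switched on by Notch in arterial endothelium, stood at 86.2 and 91.1 CPM in het and at 26.2 and 21.5 CPM in KO, a log2 fold change of -1.89 ± 0.16 (edgeR adjusted p = 1.41e-08). Hes1, a repressor of the same family, went from 184 and 129 to 49.2 and 50.4 CPM (log2 fold change -1.63 ± 0.15, adjusted p = 7.22e-08). For both genes the libraries of the groups were well apart. Heyl, a further member, stood at 9.26 and 6.28 against 2.21 and 0.679 CPM, and its call was lost without het replicate 2 (adjusted p = 0.0559) or KO replicate 2 (0.0830). Nrarp, a target that feeds back on the Notch complex, stood at 157 and 158 CPM in het and 115 and 134 CPM in KO and missed the threshold (adjusted p = 0.0519). Hey2 stood at 5.70 and 4.19 against 6.75 and 7.12 CPM and did not pass either (adjusted p = 0.401).

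Arterial genes fell together. Of 24 listed, 23 were tested, and 14 were lower and none higher, with a median log2 fold change of -0.83 against -0.02 over all tested genes. In 14 of the 23 both KO libraries lay below both het libraries, a pattern seen in 33.0% of all tested genes. Gja5, the gene of the arterial gap junction protein connexin 40, stood at 57.0 and 78.9 CPM in het and at 6.88 and 11 CPM in KO. The fall was 7.89-fold (log2 fold change -2.98 ± 0.21, adjusted p = 7.73e-09 by edgeR), and every KO library lay far below every het library. In bulk RNA, fewer arterial cells and less arterial RNA per cell cannot be told apart. Gja4, which encodes connexin 37, fell from 158 and 183 to 45.5 and 57.8 CPM (log2 fold change -1.74, adjusted p = 4.99e-09).

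Guidance and chemokine receptors were among the steepest arterial falls. Cxcr4, a chemokine receptor that directs coronary artery assembly, went from 53.4 and 57.9 to 2.34 and 4.41 CPM, a 17.0-fold fall (log2 fold change -4.08 ± 0.26, adjusted p = 1.94e-10). Unc5b, a netrin receptor of arterial and tip cells, was at 231 CPM in both het libraries and at 42.9 and 38.2 CPM in KO (log2 fold change -2.51 ± 0.12, adjusted p = 3.50e-12). Sema3g, an arterial semaphorin, went from 22.8 and 29.0 to 6.49 and 2.88 CPM. Efnb2, the ephrin that marks arterial endothelium, changed less, from 263 and 238 to 154 and 123 CPM (1.80-fold lower, adjusted p = 1.13e-05). The growth factor gene Vegfc was 3.97-fold lower and the phosphatase gene Ptp4a3 3.52-fold lower. All of these calls held without any single library. Over the wider list of axon guidance genes, 8 of 22 tested were lower and 2 higher, against 17.2% and 13.9% of all tested genes. Plxnd1, a semaphorin receptor that restrains sprouting, fell from 1815 and 1940 to 719 and 612 CPM.

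**Figure D2:**
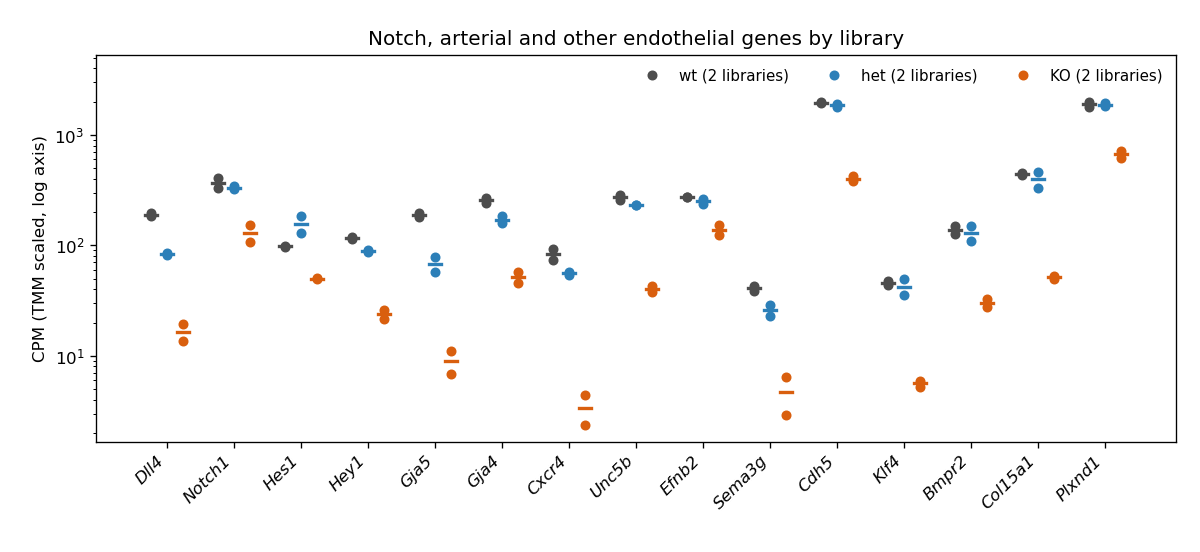
Expression of Notch, arterial and other endothelial genes in each library, in CPM on a log axis. Points are libraries, short lines are group means, and colours mark wt, het and KO. The KO points lie below the het points for each gene shown, and Dll4 and Gja5 were also called lower from wt to het. For some other genes, such as Gja4, Cxcr4, Hey1 and Sema3g, the het points lie below the wt points without a call.

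Venous genes did not move as 1 block. Of 10 tested, 4 were higher and 2 lower, against 13.9% and 17.2% of all tested genes. The median log2 fold change of -0.30 turned to 0.07 with scaling by library size alone. The lower count was 1 without KO replicate 2 and 4 without het replicate 3. Ephb4, the venous receptor for ephrin-B2, rose from 183 and 193 to 337 and 311 CPM (log2 fold change 0.78, adjusted p = 6.80e-06). Flt4, the receptor for VEGF-C, rose from 249 and 245 to 417 and 373 CPM, and its co-receptor gene Nrp2 was 1.49-fold higher. Nr2f2, the transcription factor that specifies veins, moved the opposite way, from 47.7 and 53 to 19.9 and 21.9 CPM (log2 fold change -1.28, adjusted p = 3.53e-05). Aplnr, the apelin receptor of the venous plexus, stood at 377 and 622 against 1034 and 1103 CPM, and its call (adjusted p = 0.0324) ended without KO replicate 1 (0.114), KO replicate 2 (0.128), wt replicate 4 (0.0760) or wt replicate 5 (0.0871).

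The cells kept high levels of endothelial genes. The 24 genes of the endothelial identity list, all tested, summed to 10800 and 11751 CPM in het and 10640 and 10419 CPM in KO. Of them 6 were higher and 8 lower, and the count of lower genes was 5 without KO replicate 2. The shares among all tested genes were 13.9% higher and 17.2% lower. Pecam1, the gene of the sorted antigen CD31, stood at 716 and 752 against 844 and 892 CPM. Its rise (adjusted p = 0.0419) was lost without either KO or either het library (adjusted p from 0.0586 to 0.237). Cdh5, which encodes the adherens junction protein VE-cadherin, was the exception in size, going from 1808 and 1910 to 421 and 381 CPM (4.64-fold lower, adjusted p = 4.19e-13). The endothelial transcription factor gene Erg fell from 57.7 and 49.2 to 26.5 CPM in both KO libraries. The receptor genes Kdr and Tek rose, by 1.51-fold and 1.61-fold.

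Among basement membrane genes 8 of 14 were higher and 4 lower, and without KO replicate 1 only 4 were higher. Among all tested genes 13.9% were higher and 17.2% lower. Col15a1, a collagen of vascular basement membranes, fell from 334 and 462 to 53.1 and 49.9 CPM (7.77-fold, adjusted p = 3.48e-11), and the proteoglycan gene Agrn fell from 246 and 189 to 120 and 102 CPM. The linker gene Nid2 and the laminin gene Lamb1 rose 1.9-fold and 1.56-fold.

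In bone morphogenetic protein (BMP) signalling, the ligand gene Bmp6 rose. Under TMM scaling more listed genes fell than rose among ligands, receptors and Smads with their targets, by the small counts given below. BMPs bind paired receptors that activate Smad proteins, which induce Id genes, and in endothelium this pathway cooperates with the response to blood flow. Bmp6, a ligand of this family made by endothelial cells, stood at 6.41 and 4.19 CPM in het and at 21.3 and 28.5 CPM in KO. Both KO libraries were above both het libraries and also above wt (5.14 and 8.23 CPM), and the rise was 4.93-fold (log2 fold change 2.30 ± 0.36, edgeR adjusted p = 4.86e-05). The receptor gene Bmpr2 fell from 150 and 110 to 32.9 and 27.8 CPM (log2 fold change -2.07, adjusted p = 7.78e-09), and the co-receptor gene Eng fell 1.66-fold. Tgfb1, a ligand of the related TGF-beta branch, fell from 271 and 251 to 89.9 and 79.4 CPM (adjusted p = 1.76e-09). Downstream, the target gene Id1 fell from 118 and 103 to 62.2 and 50.7 CPM, whereas the transducer gene Smad1 rose 1.63-fold and Smurf2, which encodes a ubiquitin ligase for Smads and receptors, fell 1.93-fold. By list, 1 of 8 tested ligands was higher and 2 lower, 2 of 11 receptors were higher and 5 lower, and 2 of 12 Smads and targets were higher and 4 lower. Median log2 fold changes were -0.66, -0.38 and -0.13. Over all tested genes 13.9% were higher and 17.2% lower. With scaling by library size alone 2 ligands were higher and 2 lower, and 3 receptors were higher and 3 lower. The small counts under TMM depended on single libraries. Lower ligands numbered 1 without het replicate 2 or KO replicate 2, and higher ligands 2 without wt replicate 4. No receptor was higher without het replicate 2 and 1 without either KO library, and 3 were lower without KO replicate 2. Higher Smads and targets numbered 1 without het replicate 3 or either KO library.

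Genes induced by blood flow were called lower in 4 of 10 and higher in 1, against 17.2% and 13.9% of all tested genes. The 1 higher call was lost without KO replicate 2. Klf4, a flow-induced transcription factor, went from 49.1 and 35.6 to 5.97 and 5.26 CPM (7.31-fold lower, adjusted p = 2.70e-08). Its relative Klf2 stood at 157 and 114 against 86.2 and 76 CPM (adjusted p = 0.00116), and this call was lost with scaling by library size alone (0.0790).

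Of 13 VEGF, angiopoietin and apelin ligands and receptors, 7 were called higher and 3 lower, against 13.9% and 17.2% of all tested genes. Only 1 was lower without het replicate 2, KO replicate 2 or wt replicate 4. Vegfa, the main angiogenic growth factor, rose from 35.6 and 52.3 to 95.1 and 101 CPM (log2 fold change 1.11, adjusted p = 5.10e-05). Apln, the peptide ligand made by sprouting endothelium, rose from 234 and 237 to 418 and 465 CPM (adjusted p = 6.74e-07). Adm, which encodes the vasoactive peptide adrenomedullin, rose from 42.7 and 49.6 to 107 and 118 CPM.

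Hypoxia-responsive genes rose in 10 of 14 tested, with none lower (1 without het replicate 3) and a median log2 fold change of 0.93. Bnip3, which encodes a receptor that marks mitochondria for removal, went from 55.6 and 57.6 to 154 and 162 CPM (2.79-fold, adjusted p = 1.59e-07). The prolyl hydroxylase gene P4ha1, needed for collagen folding, went from 105 and 129 to 250 and 259 CPM, the oxidase gene Ero1l from 107 and 102 to 212 and 277 CPM, and the histone demethylase gene Kdm3a from 42.7 and 39.1 to 80.9 and 75.3 CPM. For each of them the lowest KO library was well above the highest het library. Plin2, Bhlhe40, Egln1 and Higd1a, the other tested genes of the hypoxia list, were not called. Ak4, a mitochondrial adenylate kinase gene outside that list, went from 18.5 and 25.8 to 79.5 and 82.4 CPM.

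Glycolysis and lactate transport rose as well, in 13 of 21 tested genes with 1 lower and a median log2 fold change of 0.62. Slc16a1, which encodes the monocarboxylate transporter MCT1 for lactate and pyruvate, stood at 17.8 and 12.2 CPM in het and at 54.7 and 51.7 CPM in KO, with 13.3 and 17.1 CPM in wt. Only the KO libraries were high, and the rise was 3.70-fold (log2 fold change 1.89 ± 0.24, edgeR adjusted p = 3.37e-06). The lactate exporter gene Slc16a3 rose from 110 and 81.3 to 192 and 220 CPM. Of the 6 tested Slc16 genes 4 were higher and none lower. Among the enzymes, Pfkl, the liver-type phosphofructokinase, rose from 254 and 239 to 580 and 598 CPM (log2 fold change 1.26 ± 0.10, adjusted p = 5.01e-09). Its platelet-type relative Pfkp rose 2.15-fold, the pyruvate kinase gene Pkm 1.62-fold and the glucose transporter gene Slc2a1 2.05-fold. Hk2, Slc2a3, Pfkfb3, Aldoa, Pfkm, Gapdh and Pgk1 were tested on the glycolysis list and not called. The 1 lower gene was Ldhb, a lactate dehydrogenase subunit named here after its values were seen, at 38.5 and 34.5 against 14.7 and 24.6 CPM, a call lost without KO replicate 1 (adjusted p = 0.132). Of 7 pentose phosphate genes 3 were lower and none higher. Rpia, the ribose isomerase of that pathway, went from 10.7 and 17.1 to 0.779 and 0.848 CPM and the transaldolase gene Taldo1 from 281 and 260 to 137 and 128 CPM.

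The promoters of genes from these groups were searched for ACGTG on both strands (read on the other strand as CACGT), the core letters bound by hypoxia-inducible factors, which are also part of the CACGTG box bound by Myc and related factors. The search covered the 250 bases before the RefSeq start (GRCm38.p6). Such a match was found in 6 of 11 hypoxia genes and 9 of 20 glycolysis genes with a promoter in the RefSeq table, against 22.9% of 8557 tested genes. Both lists were counted whether their genes were called or not, so these shares describe the lists rather than the change from het to KO. Among the genes past 2-fold and higher, 4 of 11 held the full CACGTG, against 8.72% of the 8557. So did 1 of the 11 hypoxia genes and 3 of the 20 glycolysis genes. Of all 1214 called higher genes with such a promoter, 8.4% held CACGTG and 24.5% held ACGTG, close to the shares among all tested genes. These are descriptions of letters, not of binding. The promoters of Slc16a1 (chr3:104638414-104638663, plus strand), Bnip3 (chr7:138909520-138909756, minus strand) and P4ha1 (chr10:59323046-59323295, plus strand) are shown as examples that hold a match, from genes that rose. Promoters without a match are not shown. Capitals mark the match, which begins 200, 108 and 16 bases before the start in that order, and the last 13 bases before the Bnip3 start are left out as exonic in GENCODE.
Slc16a1: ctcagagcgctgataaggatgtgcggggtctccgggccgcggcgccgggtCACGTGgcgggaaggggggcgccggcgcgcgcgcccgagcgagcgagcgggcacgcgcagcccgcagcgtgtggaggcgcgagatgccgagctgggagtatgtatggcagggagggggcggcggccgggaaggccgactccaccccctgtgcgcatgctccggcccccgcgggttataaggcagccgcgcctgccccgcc
Bnip3: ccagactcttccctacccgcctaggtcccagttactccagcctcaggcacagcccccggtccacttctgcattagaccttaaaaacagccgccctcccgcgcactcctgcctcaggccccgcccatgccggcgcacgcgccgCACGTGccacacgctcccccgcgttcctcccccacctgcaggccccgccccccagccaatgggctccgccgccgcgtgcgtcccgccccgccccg
P4ha1: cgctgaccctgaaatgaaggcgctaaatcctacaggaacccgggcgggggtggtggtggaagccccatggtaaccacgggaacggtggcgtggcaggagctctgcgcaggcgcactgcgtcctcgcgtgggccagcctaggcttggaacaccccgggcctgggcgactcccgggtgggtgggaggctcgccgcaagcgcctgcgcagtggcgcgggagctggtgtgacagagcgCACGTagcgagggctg

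In the Myc network of growth-related transcription factors, 3 of 11 tested genes were higher and 4 lower, and without het replicate 2 there were 2 lower. Over all tested genes 13.9% were higher and 17.2% lower. Myc, which drives biosynthesis and division, stood at 115 and 122 CPM in het and at 152 and 161 CPM in KO, after 60.4 and 56.3 CPM in wt. The rise from het was 1.32-fold (adjusted p = 0.0181), and it was lost with DESeq2 (0.0681), without het replicate 2 (0.0653) and without KO replicate 2 (0.114). From wt to het Myc had risen by 1.02 on the log2 scale (adjusted p = 0.00113), and the difference between the steps did not pass (adjusted p = 0.0904). Mycn, its paralog, rose from 47.7 and 51.0 to 88.4 and 74.3 CPM (adjusted p = 0.00210). Mxd4, a repressor that competes with Myc for its partner Max, fell from 79.8 and 75.4 to 32.5 and 25.3 CPM (log2 fold change -1.41, adjusted p = 1.66e-06). Mnt, another such repressor, stood at 15 and 11.5 against 3.9 and 4.24 CPM (3.18-fold lower, adjusted p = 0.0034), a call lost when libraries were thinned to equal totals (0.110).

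Of 10 polyamine genes, 3 were higher and 2 lower, against 13.9% and 17.2% of all tested genes. The higher count was 1 without het replicate 3 or KO replicate 2, and the lower count was 1 when any single library was left out. Odc1, which makes putrescine from ornithine, went from 721 and 639 to 1287 and 1564 CPM (2.10-fold higher, adjusted p = 6.64e-07). Sat1, the enzyme that starts polyamine breakdown, went from 330 and 287 to 99.9 and 93.3 CPM (3.18-fold lower, adjusted p = 2.91e-10). The groups did not overlap for either. Smox, an oxidase that also breaks polyamines down, stood at 103 and 101 against 129 and 151 CPM, and its call (adjusted p = 0.0117) was lost without het replicate 3 (0.0668) or KO replicate 2 (0.141). The synthesis genes Srm, Sms and Amd1 were not called.

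Ribosome assembly genes were called higher in 18 of 35 and lower in 2, with a median log2 fold change of 0.38. Rrp12, a factor for maturing both ribosomal subunits, rose from 17.8 and 13.6 to 45.7 and 45.1 CPM (2.98-fold), the nucleolar gene Bop1 from 64.8 and 63.9 to 109 and 128 CPM, and Ncl, encoding nucleolin, from 513 and 500 to 775 and 783 CPM. The 2 lower genes were Pa2g4 (1.77-fold) and, named after its values were seen, the helicase gene Ddx21, a call lost without het replicate 2 (adjusted p = 0.321), KO replicate 1 (0.187) or wt replicate 4 (0.0682). Cytoplasmic tRNA synthetases, which charge tRNAs with amino acids, were higher in 16 of 20 and lower in 1, with a median of 0.65. Vars rose from 163 and 179 to 322 and 324 CPM and Iars from 91.2 and 108 to 201 and 193 CPM. The lower one was Qars, also named after its values were seen (log2 fold change -0.50, adjusted p = 0.0220), a call lost without het replicate 2 (0.0542), het replicate 3 (0.123), KO replicate 2 (0.158) or wt replicate 4 (0.0564).

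Ribosomal protein genes moved against the assembly factors. Of 88 listed, 80 were tested, 57 lower and 3 higher, with a median log2 fold change of -0.58. With scaling by library size alone 27 were lower and 5 higher. Rplp2, of the ribosomal stalk, went from 464 and 388 to 156 and 171 CPM (log2 fold change -1.37, adjusted p = 5.01e-09). Near-identical processed pseudogenes share reads with this family, so the division of reads among copies is uncertain. The ribosomal protein share of all counts was 3.20% and 2.78% in het, 2.50% and 2.57% in KO, and 2.54% and 2.86% in wt.

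DNA replication genes were called higher in 23 of 50 and lower in 1. Mcm2 and Mcm4, subunits of the replicative helicase, rose from 130 and 148 to 299 and 289 CPM and from 127 in both het libraries to 258 and 257 CPM. Pold1, the catalytic subunit of DNA polymerase delta, went from 61.2 and 72.9 to 159 and 156 CPM (2.32-fold, adjusted p = 9.22e-07), and the maintenance methyltransferase gene Dnmt1 from 145 and 165 to 302 and 308 CPM. The 1 lower gene, named after its values were seen, was Pcna, at 281 and 266 against 234 and 218 CPM (adjusted p = 0.0464), a call lost when any 1 of the 6 libraries was left out (adjusted p from 0.0728 to 0.284), and its sign turned with scaling by library size alone (0.11). Mitosis genes were higher in 18 of 32 with none lower, for example the cyclin gene Ccnb1, from 157 and 162 to 290 and 270 CPM, and the checkpoint kinase gene Bub1, from 65.5 and 68.1 to 113 and 125 CPM. Medians of the 2 lists were 0.41 and 0.45, and without KO replicate 1 there were 12 higher on the mitosis list, where 1 gene was lower without het replicate 2 or either wt library. Of 20 genes that act in G1, 2 were higher and 4 lower, near the shares among all tested genes (13.9% higher, 17.2% lower). Ccnd2, a D-type cyclin, fell from 270 and 256 to 117 and 100 CPM (2.41-fold, adjusted p = 4.31e-08), and Ccng2, a cyclin linked to growth arrest, rose from 57.0 and 53 to 104 and 98.2 CPM.

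Nucleotide and one-carbon synthesis followed the growth genes in part. In nucleotide synthesis 8 of 16 genes were higher and 2 lower, against 13.9% and 17.2% of all tested genes. Gart, an enzyme of the early steps of purine synthesis, rose from 64.8 and 53 to 117 and 118 CPM. Atic, the enzyme of its final steps, fell from 81.2 and 95.6 to 24.5 and 23.6 CPM (3.70-fold, adjusted p = 1.80e-08). The other lower gene was Pfas, named after its values were seen, at 28.5 and 31.4 against 17.9 and 18.7 CPM, a call lost without het replicate 3 (adjusted p = 0.131), KO replicate 1 (0.0856) or KO replicate 2 (0.0601), with DESeq2 (0.116) and with scaling by library size alone (0.220). Mthfd1, which supplies folate one-carbon units, rose from 55.6 and 48.9 to 116 and 118 CPM, and 5 of 11 serine and one-carbon genes were higher with none lower.

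**Figure D3:**
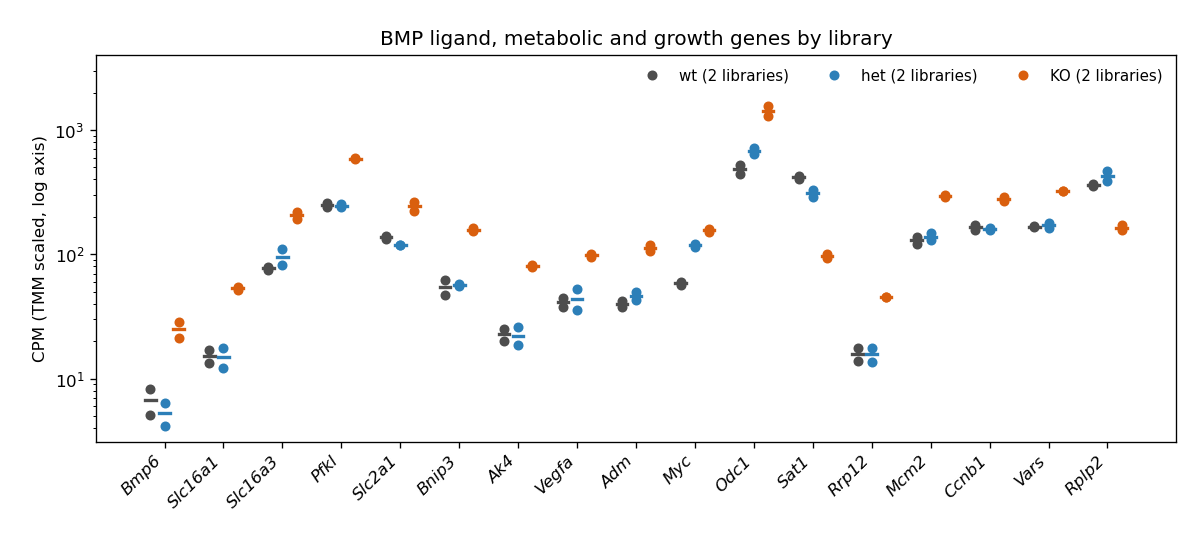
Expression of Bmp6 and of metabolic and growth genes in each library, in CPM on a log axis. Points are libraries, short lines are group means, and colours mark wt, het and KO. The KO points lie above het for each gene except Sat1 and Rplp2, which are lower, and Myc shows its larger step from wt to het.

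Lists of growth and stress signalling genes were divided. For reference, 13.9% of all tested genes were higher and 17.2% lower. Feedback regulators of ERK signalling were higher in 2 of 12 and lower in 3, and amino acid response genes were higher in 5 of 17 and lower in 4. The higher ERK count was 0 without KO replicate 2 and 1 without either het library, and the higher amino acid count was 3 without het replicate 3 or KO replicate 2. Spry2, a feedback inhibitor of receptor tyrosine kinase signalling, went from 24.9 and 23.0 to 4.16 and 2.88 CPM (6.65-fold, adjusted p = 3.28e-06). Ddit4, an inhibitor of mTORC1, went from 30.6 and 36.6 to 8.31 and 4.75 CPM (5.10-fold). Transporters for arginine (Slc7a1, 162 and 129 to 43.0 and 54.5 CPM), for small neutral amino acids from lysosomes (Slc36a1, 17.8 and 20.9 to 1.95 and 2.04 CPM) and for zinc (Slc39a1, 61.2 and 44.7 to 6.23 and 3.73 CPM) fell too. Over all 177 tested solute carriers, 32 were higher and 20 lower. Without KO replicate 2 these counts were 19 and 12, and without het replicate 3 there were 12 lower. Trib3, a pseudokinase gene of the amino acid stress response, rose from 7.12 and 14.3 to 32.5 and 31.4 CPM.

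The first and second steps can be set side by side. Gja5 changed by -1.45 from wt to het and by -2.98 from het to KO on the log2 scale, a difference of -1.53 ± 0.34 (edgeR adjusted p = 0.00567). Cxcr4 changed by -0.59 and then by -4.08 (difference -3.50, adjusted p = 3.53e-06), Unc5b by -0.24 and then by -2.51 (adjusted p = 1.21e-07), and Slc16a1 by -0.06 and then by 1.89 (adjusted p = 0.00970). Other genes changed sign between the steps. Hes1, at 98.5 and 96.8 CPM in wt, was 0.66 higher in het, which did not pass (adjusted p = 0.101), and then 1.63 lower in KO, and the steps differed by -2.29 ± 0.26 (adjusted p = 4.65e-06). Adamts8, a secreted metalloproteinase gene, stood at 39.0 and 35.4 CPM in wt, 15.7 and 12.6 in het and 70.9 and 45.3 in KO. Both of its steps were called, -1.44 with adjusted p = 0.0368 and 2.09 with adjusted p = 2.85e-06, and they differed by 3.53 ± 0.49 (adjusted p = 5.77e-05). Jag1 changed by -1.06 (not called, adjusted p = 0.0633) and then by 0.60, a difference of 1.66 (adjusted p = 0.00809).

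**Figure D4:**
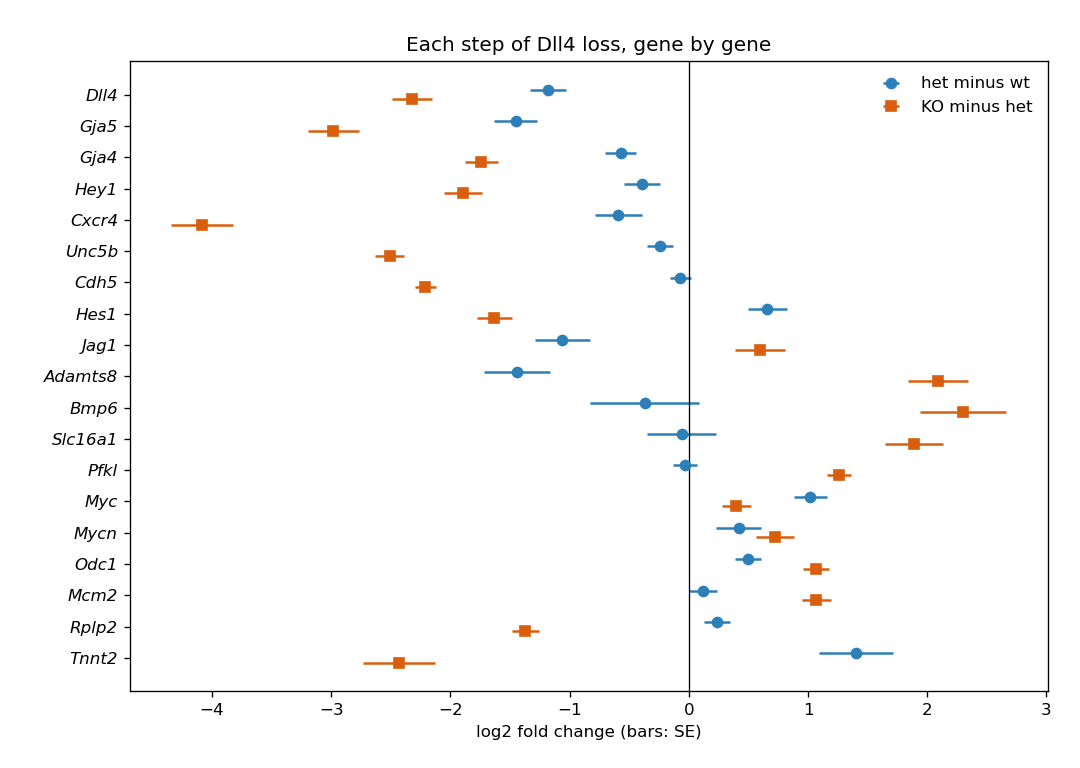
Log2 fold change of named genes from wt to het (blue circles) and from het to KO (orange squares), with standard errors as bars. Arterial genes lie further left in the second step, and Myc is the gene shown whose larger rise is the first step. Hes1, Jag1 and Adamts8 lie on opposite sides of 0, as do Bmp6, Rplp2 and Tnnt2. Slc16a1 and Pfkl do so as well, with a first step near 0.

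Under the rule for the largest changes, the steepest falls included Lars2, annotated as protein-coding (187104 and 181049 CPM against 483 and 517), and structural RNA genes. These RNA genes were the 7SL genes Rn7s1 and Rn7s2, which share reads (1281 and 714 against 5.19 and 9.84 CPM), and the 7SK gene Rn7sk (66.9 and 95.3 against 0.909 and 0.509 CPM). The mitochondrial ribosomal RNA gene mt-Rnr2 fell too (19735 and 34776 against 848 and 735 CPM). The call of mt-Rnr2 (adjusted p = 0.00932) ended without KO replicate 1 (0.0794) or KO replicate 2 (0.0852). A list that holds these genes and Lars2 together with the lincRNA gene Neat1 and with Malat1 had 8 tested members. Of them 7 were lower, Malat1 was not called, and fewer were lower without KO replicate 1. Replication-dependent histone genes, whose transcripts lack poly(A) tails, were lower in 15 of 21 tested of 67 listed, and without het replicate 3 in 7. The processed pseudogene Ppp1ccb, whose reads can be shared with a near-identical parent gene, was at 6.41 and 20.2 CPM in het and at 0 in both KO libraries, at least 71.1-fold lower when 3 counts, summed over both KO libraries, are taken as the floor, and Rps12l1, likewise a processed pseudogene, fell from 110 and 94.6 to 0 and 2.04 CPM. Among protein-coding genes, Vat1, a vesicle membrane protein gene, fell from 152 and 140 to 3.77 and 3.56 CPM (39.1-fold, edgeR adjusted p = 1.74e-14), the phosphatase gene Ctdsp1 from 110 and 105 to 5.58 and 3.56 CPM, the cyclin gene Ccnk from 47.0 and 48.9 to 2.60 and 2.54 CPM, the histone methyltransferase gene Setd1b from 23.5 and 35.2 to 1.30 and 1.36 CPM, and the chemerin receptor gene Cmklr1 from 22.1 and 16.1 to 0.779 and 1.19 CPM. Bri3 and Prr12 completed this group, at 21.9-fold and 20-fold lower.

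The largest rises by the same rule were smaller. Besides Bmp6, Adamts8, Slc16a1 and Ak4, they included Pdk4, an inhibitor of pyruvate entry into mitochondria (2.85 and 3.49 against 14.2 and 9.67 CPM). The call of Pdk4 was lost without KO replicate 1. Others were the cannabinoid receptor gene Cnr2 (4.99 and 4.89 against 15.8 and 18.7 CPM), Fndc3c1 (3.47-fold) and Plekha2 (3.39-fold). The reelin and apolipoprotein E receptor gene Lrp8 (2.98-fold) and Atp10a (3-fold) followed. The call of Atp10a was lost without KO replicate 1 and with DESeq2 (adjusted p = 0.0584). The Y-linked genes Eif2s3y and Kdm5d, each 3.21-fold higher, were also among these rises. Uty, likewise Y-linked, rose more than Bmp6, and these Y-linked genes are given with Xist below. Pakap was at 0 in both het libraries and at 81.4 and 64.5 CPM in KO, at least 105-fold higher. It overlaps the genes Palm2 and Akap2 on the same strand, so its reads are uncertain.

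Sequence features of the called genes were described from the longest GENCODE transcript of each gene. A run of 6 C was present in 65.9% of genes past 2-fold and lower, and in 62.5% of the 16 past 2-fold and higher. It was present in 55.5% of all called lower, in 40.9% of called higher and in 42.6% of all tested genes. Runs of 6 G were present in 55.6% of genes past 2-fold and lower, against 36.4% of all tested genes. The transcripts of those lower genes were also longer (median 4158 against 3476 bases) and richer in GC (53% against 49.4%). Put the other way, 22.4% of 4640 genes with such a run were called lower, against 13.3% of 6263 without one, while 13.4% and 14.3% were called higher. With the trend in GC content removed, 1493 genes were higher and 1880 lower. By annotation class, 34.0% of 100 tested pseudogenes and 30.9% of 178 long non-coding genes were lower, against 16.7% of 10623 protein-coding genes. How library preparation bears on these shares was not tested.

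Markers of other cells and of sex moved with the comparison. Of 15 cardiomyocyte genes 10 were tested, all lower in KO, and without KO replicate 2 there were 6 lower. Tnnt2, cardiac troponin T, stood at 29.2 and 31.4 CPM in het, 5.45 and 5.77 in KO and 11.1 and 12 in wt, and the summed level of the list was 247 and 198 CPM in het, 60.1 and 53.6 in KO and 127 and 116 in wt. Actc1 went from 62.7 and 52.3 to 16.4 and 16.3 CPM. Of 11 tested mural and fibroblast genes 5 were lower and none higher, with sums of 476 and 612 CPM in het and 369 and 202 in KO, and without het replicate 3 there was 1 lower. Macrophage genes were lower in 3 of 7, with sums of 247 and 71.2 against 33.9 and 9.84 CPM, and in 5 of 7 without het replicate 3. The 1 tested epicardial gene, Wt1, was lower (adjusted p = 0.00405), a call lost without het replicate 3 (0.138) and with scaling by library size alone (0.272), and none of 7 erythroid and platelet genes was called (1 was higher without either wt library). No member of the cardiomyocyte, mural, macrophage and epicardial lists was at 0 in all het and KO libraries together. Their part in the arterial, growth and metabolic results was not tested. Xist, the RNA that silences an X chromosome in female cells, stood at 279 and 229 CPM in het and 30.1 and 22.2 CPM in KO, and the Y-linked genes Uty, Kdm5d and Eif2s3y were 5.22-fold, 3.21-fold and 3.21-fold higher in KO, so a difference in the sex of the embryos cannot be told apart from genotype. None of 8 endocardial genes was called, with 3 lower without het replicate 3 and 1 higher without het replicate 2.

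Genes near Dll4 may lie on a chromosome stretch that came with the floxed allele. By the crosses that allele was on both homologues in KO and on 1 in het. How far such a stretch reaches is not known, and the window of 5 Mb was a chosen setting. Within 5 Mb on either side, 78 of 203 annotated genes were tested, and 10 were higher and 12 lower, 28.2% against the 31.2% of all genes, with a median log2 fold change of -0.10. Of these, 2 passed 2-fold, the chromatin remodeller gene Ino80, 0.0371 Mb away (29.2 and 26.9 against 8.44 and 5.94 CPM), and the initiation factor gene Eif3j1, 2.69 Mb away (39.2 and 33.5 against 6.62 and 8.31 CPM, with 78.8 and 86.7 in wt). Tmem87a, 1.02 Mb away, stood at 4.28 and 5.06 CPM in wt, 14.2 and 17.1 in het and 38.6 and 52.6 in KO. Its rise from het to KO was called, and the step from wt to het was not (adjusted p = 0.0531). Alleles linked to the floxed gene cannot be told apart from the loss of Dll4.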

How the data were processed

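Sorted endothelial RNA was amplified with SMART-Seq v4 and made into Nextera XT libraries, per the labels' protocols, which disagree on single or paired reads. The authors deposited 1 table of expected counts per gene, estimated reads that need not be whole (4.29% to 5.87% of values per library were not). CASAVA, cutadapt, RSEM and GRCm38 are named per the submitters' processing notes, and versions are not given in the sources used here. RSEM divides reads among similar genes, and the kit marks no strand, so overlapping, antisense and near-identical genes are uncertain. Counts were rounded. Symbols and positions came from GENCODE M21, which matched 97.9% of 41214 identifiers.

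In R 4.3.3, edgeR 4.0.16 was run with TMM scaling, filterByExpr (minimum count 10), all 6 libraries in 1 fit with 3 groups (3 residual degrees of freedom), robust two-sided quasi-likelihood tests and Benjamini-Hochberg adjustment over 10952 genes. Every adjusted p is from edgeR unless another tool is named. A gene was called at an adjusted p under 0.05. Changes past 2-fold were tested with glmTreat. The bound for a group at 0 uses a floor of 3 counts and covers counting error only. On simulated counts for KO against het, 200 of 10952 genes were given a log2 change of 1. The calls made there held 133 of these 200 and 18 unchanged genes. In the data 3412 genes were called, and the share of false calls among them was not tested.

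The members and gene lists were chosen with earlier results of these data known. Genes were named by a rule: the 4 markers Dll4, Gja5, Bmp6 and Slc16a1; the 15 strongest changes each way among those called, where mean log2 CPM reached 3 and the KO and het ranges were disjoint (predicted genes left out); the 5 largest differences between the steps each way under the same limits; up to 6 members per described list by adjusted p; and called genes within 5 Mb of Dll4. Further genes are said to be named after their values were seen, or stand with all members of their count. Replicates differed by 5.42 (het) and 5.43 (KO) times the sampling variance per gene, so none was a duplicate. Alternatives were other scalings, filters, DESeq2 1.42.0, limma-voom (limma 3.58.1), a fit of KO and het alone, thinning to 1537894 counts, removal of the GC trend, and leaving out each library. A few genes that the naming rule covers are not reported here.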

Additional observations from a re-analysis of the deposited data

How the results depend on the processing

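No paired analysis was possible because the KO and het libraries share only the number 2. The count of 3412 genes called between KO and het stayed within 1.5 times under each alternative. It ran from 2372 with DESeq2 to 4946 with library size only, and from 2435 to 3206 when 1 library was left out. The count past 2-fold, 409, was 206 with DESeq2 and 270 with limma-voom, and 286 to 363 when 1 library was left out. The 19 genes of het against wt became 8 with limma-voom, 150 with no filter and 46 with thinning, and 2 (without wt replicate 4) to 76 (without het replicate 3) when 1 library was left out. The 1258 genes that differed between the steps became 779 with DESeq2 and 2162 with library size only (1603 higher and 559 lower), and 758 to 1153 when 1 library was left out. The causes were not tested.

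Of 140 genes checked by name 137 were called, and 116 of these kept their call in each alternative that tested them. With library size only Pcna (0.11), Notch4 (0.19) and Nrarp (0.04) changed sign, as did Notch4 with the GC trend removed (0.06). With 1 library left in a group, that library is assumed to vary like the other groups. With 2 libraries per group and het totals below those of KO, small changes of low genes could not be resolved.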
